A study of Mus musculus with 8 samples.

Results

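The genes for the receptor SMADs (Smad1, Smad2, Smad3, Smad5 and Smad9) and for SMAD4 itself were examined for SMAD4 ChIP-seq peaks in the early mouse limb bud. These 6 genes were taken by name from the 22350 protein-coding gene records that the GENCODE vM1 annotation of mm9 places on chromosomes 1 to 19 and X, the chromosomes that hold peaks. A peak was assigned to a gene when the centre of the peak lay within 100 kb of the 5′ end of the gene. This took 0 of the 2073 peaks at E9.5 and 7 of the 6185 peaks at E10.5. The study compared SMAD4-chromatin complexes at the onset of forelimb bud development with those during early limb bud outgrowth, and 1 peak list represents each stage. The E9.5 group comprised 2 ChIP and 2 input samples of forelimb buds with trunk attached, from about 80 pooled embryos per replicate, which the protocol dates to E9.75. The E10.5 group comprised 2 ChIP and 2 input samples of forelimb and hindlimb buds, from about 100 pooled embryos per replicate. All embryos, those behind the input samples included, were NMRI mice (as the strain label gives it) homozygous for the Smad4Flag allele, in which an in-frame 3xFLAG tag extends the C-terminus of the endogenous SMAD4 protein, and the precipitations used the M2 anti-FLAG antibody.

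SMADs are the intracellular transducers of the TGF-β superfamily. SMAD1, SMAD5 and SMAD9 (also called SMAD8) are phosphorylated by type I receptors for BMPs, whereas SMAD2 and SMAD3 are phosphorylated by those for TGF-β and activins. The activated receptor SMADs assemble with SMAD4, the common partner of both branches, and the complexes bind DNA in the nucleus, while the inhibitory SMAD6 and SMAD7 dampen the signal. In limb buds BMP signalling is required for the apical ectodermal ridge, digit patterning and the onset of chondrogenesis.

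At E9.5 no peak was found within 100 kb of any of the 6 genes, whereas at E10.5 peaks were found at Smad5 (4 peaks), Smad4 (2 peaks) and Smad9 (1 peak). At each of these 3 genes, 1 of the E10.5 peaks covered the 5′ end. No peak was found in this window at Smad1, Smad2 or Smad3 at either stage. At E9.5, a peak within 100 kb was found for 20.5% of the protein-coding genes, against 0 of the 6. This count became 2 of the 6 (Smad4 and Smad5) when distances were taken to any annotated transcript 5′ end, beside 21.8% of all genes measured in the same way. For E10.5 this share was 52.9%, against 3 of the 6. The 5′ end lay inside an E9.5 peak for 2.11% of all genes (0 of the 6), and inside an E10.5 peak for 11.3% (3 of the 6). A peak at E10.5 without a peak at E9.5 was seen for 38.3% of all genes (3 of the 6), and no peak at either stage for 41.2% (3 of the 6). The number of SMAD genes with an E10.5 peak in the window was thus near the background. The 3 with a peak over the 5′ end, beside the background of 11.3%, were the same 3 genes. Among all genes with an E10.5 peak within 100 kb, the 5′ end lay inside a peak for 21.4%. No test was made of these counts, because both replicates of a stage had been combined into 1 list by the authors and the 6 genes are not replicates.

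**Figure D1:**
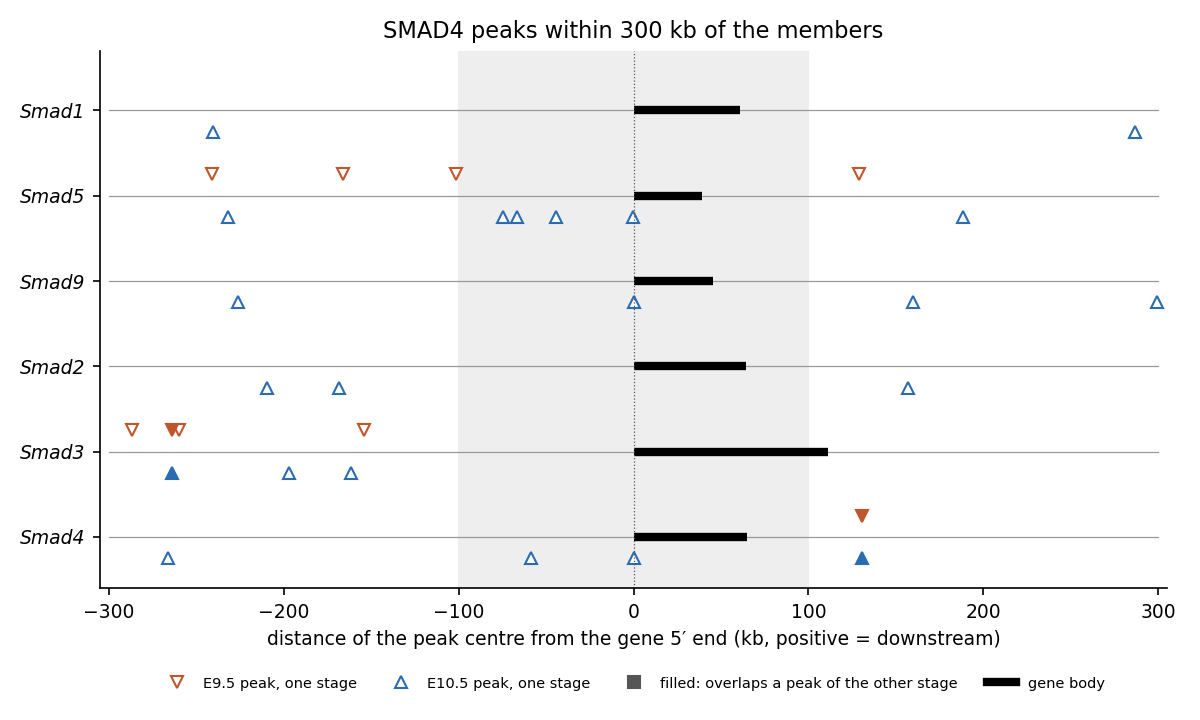
Peaks within 300 kb of the 5′ end of each receptor SMAD gene and of Smad4, drawn as distance in kb from that 5′ end (positive in the direction of transcription) for the E9.5 and E10.5 lists. Within 100 kb only E10.5 peaks are seen, 4 at Smad5, 2 at Smad4 and 1 at Smad9.

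The E10.5 list is longer than the E9.5 list, the tissue differs between the stages, and the depth of the libraries is unknown. The part of depth, enrichment and tissue in the difference between the lists was not tested, and a gene with no peak in a list may still be bound by SMAD4. The lists give a score for each peak without naming its unit, so that scores were compared only within a list, as ranks from 1 for the highest score. In an alternative, only the 2073 highest-scored of the 6185 E10.5 peaks were kept, to equal the length of the E9.5 list. This left 2 of the 7 peaks, 1 upstream of Smad5 and 1 over the 5′ end of Smad4, and Smad9 had none. As 2073 of 6185 peaks were kept over the whole list, 2 of 7 does not set these peaks apart. The share of all genes with a peak was not counted under this cut.

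None of the 7 E10.5 peaks overlapped an E9.5 peak, while 6.26% of the whole E10.5 list did, so that 0 of 7 does not set these peaks apart. As no E9.5 peak was centred in the window, an overlap was possible only near its edges, and 0 of 7 is not a separate result. The gap to the nearest E9.5 peak ranged from 22.1 kb to 895 kb. Scores of the 7 peaks lay between 50.2 and 94.1 with a median of 53.0, and 5 of the 7 fell below the median of the whole E10.5 list (59.8). Their widths ranged from 1445 to 9430 bp with a median of 2175 bp, compared with 2552 bp over the list.

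Smad5, a receptor SMAD of the BMP branch (ENSMUSG00000021540.9, chr13:56804371-56843738, forward strand), was the gene with most peaks among the 6. At least 4 E10.5 peaks within 100 kb were found for 5.42% of all protein-coding genes. The highest-scored of the Smad5 peaks, chr13:56725247-56734676, was centred 74.4 kb upstream of the 5′ end, had a score of 87.7 and ranked 848 of 6185. With 9430 bp, it was wider than 98.9% of the E10.5 peaks. The neighbouring peak, chr13:56735264-56739854, was centred 66.8 kb upstream, with a score of 52.4 and rank 4645. Both were centred in introns of Tgfbi, which encodes a secreted protein of the extracellular matrix that TGF-β induces, and both were nearer to the 5′ end of Tgfbi (19.0 and 26.6 kb) than to that of Smad5. The distance rule therefore assigned them to Smad5 as well as to Tgfbi, and the lists do not tell which gene, if any, they regulate. A separate peak, chr13:56759379-56760823, lay between the genes 44.3 kb upstream of Smad5, the nearest coding gene, with a score of 51.0 and rank 5030.

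The fourth Smad5 peak, chr13:56803002-56805582, covered the 5′ end, reaching 1369 bp upstream and 1211 bp downstream of it, and 6 annotated 5′ ends of Smad5 transcripts lay inside. Its centre was 79 bp upstream of the 5′ end of the gene. Its score of 50.2 was the lowest of the 7, at rank 5302 of 6185. Among the 2244 E10.5 peaks that cover a coding 5′ end, 96.6% had a better rank. The E9.5 peak nearest to the 5′ end of Smad5, chr13:56702199-56703135, was centred 102 kb upstream of it, just outside the window, with a score of 45.7 and rank 1742 of 2073. It lay 8.25 kb from the 5′ end of Tgfbi, and 20.8% of genes lay nearer to a peak of this list than Smad5.

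Smad9, the second BMP receptor SMAD gene with a peak (ENSMUSG00000027796.2, chr3:54559504-54605179, forward strand), had 1 E10.5 peak, chr3:54558707-54560512. It was centred 105 bp downstream of the 5′ end, in an annotated UTR of Smad9, and extended 797 bp upstream and 1008 bp downstream of the 5′ end. The score was 54.8, the rank 4030 of 6185, and 79.9% of the peaks that cover a coding 5′ end had a better rank. The nearest E9.5 peak (score 52.3, rank 1412) was centred 896 kb away, with Mab21l1 as the nearest coding gene (131 kb), and 76.3% of all genes had a nearer one. The region around Smad9 was thus the one farthest from any E9.5 peak among the 6 genes.

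Smad1, the remaining receptor SMAD of the BMP branch (ENSMUSG00000031681.8, chr8:81862294-81923417, reverse strand), had no peak within 100 kb at either stage. Its nearest E10.5 peak, chr8:82162643-82164509, was centred 240 kb upstream of the 5′ end, 59 bp from the 5′ end of the deubiquitinase gene Otud4, with a score of 96.8 and rank 591. The nearest E9.5 peak, chr8:81551357-81555497, was centred 370 kb from the 5′ end of Smad1, beyond the 3′ end of the gene, and 1.09 kb from the 5′ end of the zinc-finger gene Zfp827. With a score of 377 and rank 20 of 2073, it overlapped an E10.5 peak. A nearer peak than that of Smad1 was found for 71.2% of all genes at E10.5 and for 51.7% at E9.5.

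**Figure D2:**
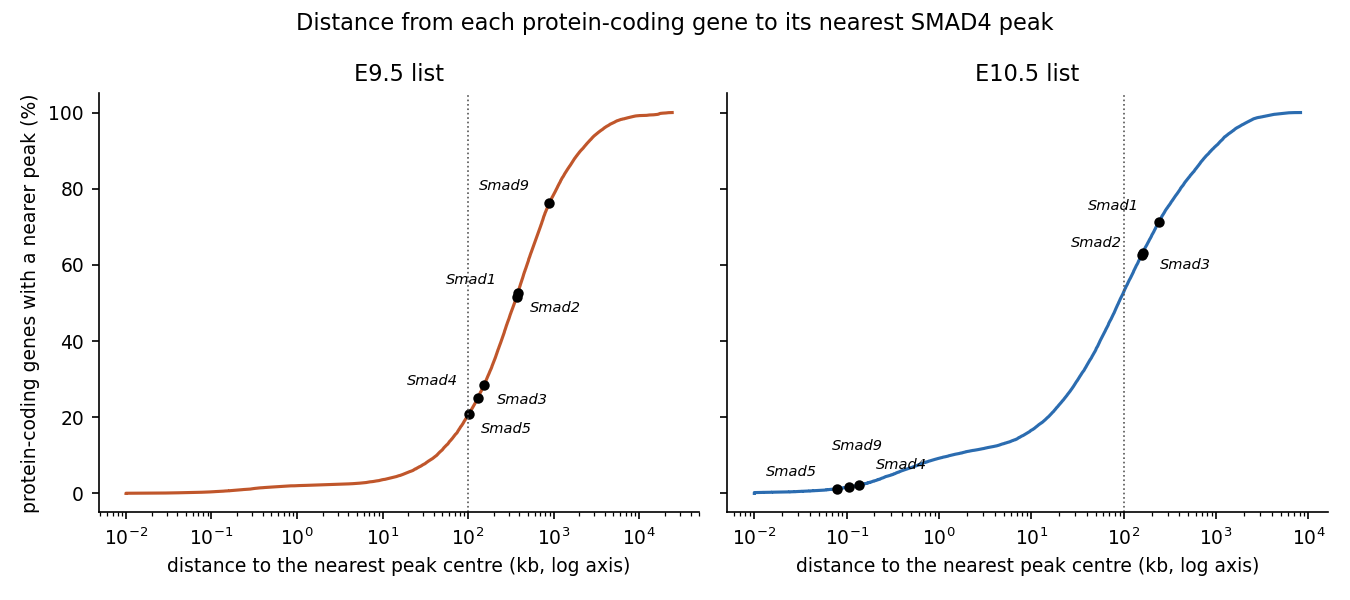
Share of protein-coding genes (%) whose nearest SMAD4 peak is nearer than the distance on the x axis (kb, log axis), with the 6 SMAD genes as points and the 100 kb window as a dotted line. At E10.5, Smad5, Smad9 and Smad4 sit at 0.079, 0.105 and 0.136 kb, whereas the other 3 SMAD genes sit between 157 and 240 kb.

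The reference sequence under the peaks was searched on both strands for 4 short sequences: the SMAD box CAGAC, the longer form CAGACC (which contains it), the palindrome GTCTAGAC and GGCGCC, a GC-rich sequence to which SMADs also bind. The sites printed here are the ones in or next to the centres of the Smad5 and Smad9 peaks, since these show what the 5′ peaks hold in comparison with the peaks farther upstream. They were read from mm9, which represents another mouse strain than the embryos, and each is written 5′ to 3′ on the strand on which the matched sequence, in capitals, reads as spelled above.
Smad5, peak 74.4 kb upstream, chr13:56730017-56730045, forward strand: agagacccttccCAGACatggggagaaag
Smad5, peak 66.8 kb upstream, chr13:56737575-56737603, reverse strand: atgtgcctgtgaCAGACaggctctcaaca
Smad5, peak 66.8 kb upstream, chr13:56737621-56737650: attcaccctgagGGCGCCttcccacctatg
Smad5, peak 44.3 kb upstream, chr13:56760115-56760143, forward strand: gtactgacgtggCAGACtcgctgtgggta
Smad5, peak over the 5′ end, chr13:56804382-56804411: ccccggcgagcgGGCGCCgagcgcttgtcc
Smad9, peak over the 5′ end, chr3:54559697-54559725, reverse strand: cctcgcacactaCAGACaccacccaggtt
Smad9, peak over the 5′ end, chr3:54559441-54559470: gcacggccgcctGGCGCCcttccagcgcgg

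In the 300 bp around the centre, the SMAD box CAGAC was found in 5 of the 7 peaks, compared with 53.2% of all E10.5 peaks. In the upstream Smad5 peaks the box nearest to the centre was 70, 30 and 28 bp from it. The peak over the 5′ end of Smad5 held no CAGAC in this window. It held a GGCGCC centred 26 bp downstream of the 5′ end. The Smad9 peak held a CAGAC 207 bp downstream of the 5′ end, and GGCGCC matches 48 bp upstream and 346 bp downstream of it, outside the central window. GGCGCC was found in the central window of 3 of the 7 peaks, compared with 13.1% of the list. CAGACC was found in 0 of the 7 (19.7% of the list) and GTCTAGAC in 0 of the 7 (0.42%). CAGAC occurred somewhere in all 7 peaks when the whole width was searched, as in 98.2% of the list, and its density was 2.42 matches per kb in the 7 peaks, compared with 2.97 per kb over the list.

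The 3 peaks over the 5′ ends differed from the other 4 in base composition. The central 300 bp had a GC content of 65.0% at Smad5, 72.3% at Smad9 and 81.0% at Smad4, compared with 47.7 to 59.0% in the other 4 peaks. All 3 values lay above the median of the list (55.0%), and the value at Smad4 was higher than 98.7% of the list. The ratio of observed to expected CpG was 1.05 at Smad5, 0.842 at Smad9 and 1.12 at Smad4, and ranged from 0.105 to 0.433 in the other 4. The same separation was present over the whole list. Peaks that cover a coding 5′ end had a median GC content of 65.7% and the remaining peaks 52.3%, and GGCGCC was found in the central window of 27.5% and 5.0% of them. CAGAC was found in 46.4% of the former and 57.0% of the latter.

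**Figure D3:**
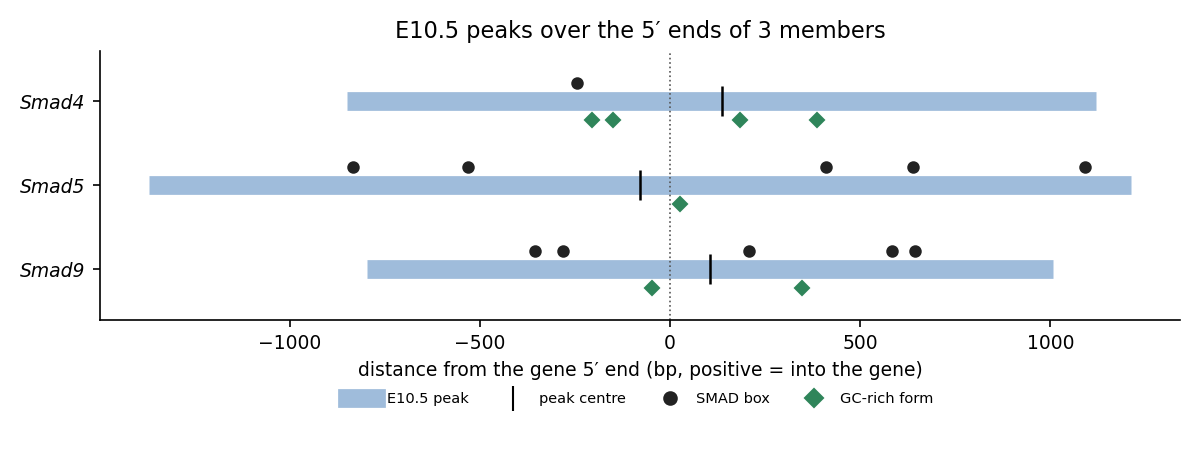
Extent of the E10.5 peaks that cover the 5′ ends of Smad4, Smad5 and Smad9 in bp from the 5′ end, with the peak centre (line), CAGAC matches (SMAD box, circles) and GGCGCC matches (GC-rich form, diamonds). The peaks at Smad5 and Smad9 hold 5 CAGAC matches each and the peak at Smad4 holds 1, while GGCGCC matches number 1, 2 and 4 at Smad5, Smad9 and Smad4.

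The GC-rich sequence near the 5′ end was not confined to the genes with a peak. In the window from 250 bp before to 50 bp after the annotated 5′ end, GGCGCC was found at Smad5 (1 match), Smad9 (1), Smad4 (2) and also at Smad2 (1), which had no peak there, and in 14.3% of all coding promoters. No match was found at Smad1 or Smad3. CAGAC was found in this window at Smad4 and Smad2 and in 48.5% of all coding promoters. The GC content of the window was 63.0% at Smad5, 73.7% at Smad9 and 69.3% at Smad4, compared with 57.0% at Smad1, 74.0% at Smad2 and 67.7% at Smad3, so that the genes with and without a peak overlapped.

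Smad2, 1 of the 2 receptor SMADs of the TGF-β and activin branch (ENSMUSG00000024563.9, chr18:76401234-76465385, forward strand), had no peak within 100 kb. The nearest E10.5 peak, chr18:76553888-76561986, was centred 157 kb downstream of the 5′ end, past the 3′ end of the gene, with a width of 8099 bp, a score of 84.1 and rank 982. By gene 5′ ends, Smad2 was the nearest coding gene to this peak and to another pair of E10.5 peaks upstream, chr18:76230500-76234894 (169 kb from the 5′ end, score 63.5, rank 2538) and chr18:76189620-76193228 (210 kb, score 50.6, rank 5176). This upstream pair was centred in introns of Zbtb7c, a zinc-finger gene, and annotated transcript 5′ ends of Zbtb7c lay much nearer than Smad2, at 13.6 and 27.7 kb. Had each peak been given to the coding gene with the nearest gene 5′ end up to 1 Mb away, Smad2 would have had 3 peaks, Smad5 2, Smad4 1 and Smad9 1 at E10.5, and all 6 genes 0 at E9.5. Of the 3 peaks of Smad2, only the 1 at 157 kb was also nearest to a transcript 5′ end of Smad2. The E9.5 peak nearest to Smad2 was centred 380 kb away, still nearer to Skor2, which encodes a SKI family corepressor (314 kb), with a score of 113 and rank 163.

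Smad3, the other receptor SMAD of this branch (ENSMUSG00000032402.6, chr9:63494574-63605801, reverse strand), had no peak within 100 kb and no peak in its gene body at either stage. Its nearest peaks lay upstream, at 154 kb for E9.5 (chr9:63758901-63760995, score 51.4, rank 1502) and at 161 kb for E10.5 (chr9:63765811-63768666, score 52.7, rank 4574). These neighbouring peaks did not overlap. Smad6, whose 5′ end is 264 kb from that of Smad3, was the nearer coding gene, at 110 and 103 kb. A nearer peak than that of Smad3 was found for 28.5% of all genes at E9.5 and for 63.2% at E10.5.

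Smad4, which encodes the precipitated protein itself (ENSMUSG00000024515.7, chr18:73798663-73863434, reverse strand), had the highest-scored peak of the 6 genes. The E10.5 peak chr18:73862314-73864283 covered the 5′ end, reaching 849 bp upstream and 1120 bp downstream, and was centred 136 bp downstream, in an annotated UTR of Smad4. Its score was 94.1 and its rank 667 of 6185, in the upper 10.8% of the list. Among the peaks that cover a coding 5′ end it ranked 429 of 2244, ahead of Smad9 at 1794 and Smad5 at 2169. The median score of these peaks was 67.3 with quartiles of 56.6 and 86.4, so that Smad4 lay above the upper quartile and Smad9 and Smad5 below the lower quartile. The other Smad4 peak, chr18:73920816-73922990, was centred 58.5 kb upstream with a score of 53.0 and rank 4487, and lay nearer to Elac1, a tRNA-processing gene (7.77 kb).

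The annotated 3′ end of Smad4 lay 64.7 kb from the nearest E9.5 peak and 63.7 kb from the nearest E10.5 peak, and no peak was found over it. The allele carries the FLAG sequence at the start of the 3′UTR, so that these distances are not those of the tag itself. The E9.5 peak nearest to the 5′ end of Smad4, chr18:73731506-73734012, was centred 131 kb from it, beyond the 3′ end of Smad4, and 61 bp from the 5′ end of Mex3c, which encodes an RNA-binding ubiquitin ligase. It had a score of 107 and rank 176, and overlapped the E10.5 peak chr18:73731436-73734181 (score 124, rank 215). The shared peak nearest to Smad4 was thus at the promoter of its neighbour.

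**Figure D4:**
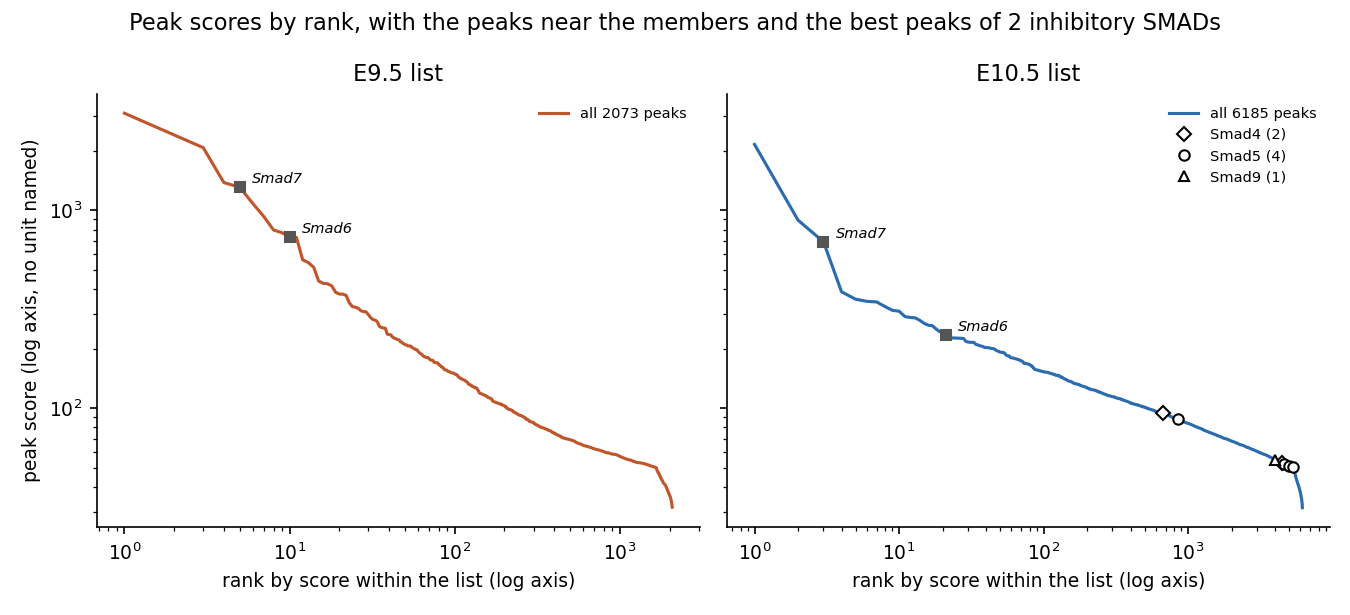
Peak score against rank within the E9.5 and E10.5 lists (both axes log, score unit not named), with the 7 peaks assigned to Smad4, Smad5 and Smad9 and the highest-scored peaks of the inhibitory Smad6 and Smad7. The 7 peaks have ranks from 667 to 5302 in the E10.5 list, whereas Smad7 and Smad6 have ranks 3 and 21 there.

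The inhibitory SMAD genes showed another arrangement. Smad6 and Smad7 each had peaks at both stages, 6 in all in each list, and the 5′ ends of both lay inside a peak in both lists. The highest-scored Smad7 peak had a score of 1310 and rank 5 at E9.5 and a score of 694 and rank 3 at E10.5. For Smad6 the E9.5 peak had a score of 734 and rank 10, and the E10.5 peak a score of 235 and rank 21. With gene 5′ ends as reference, the best peak of the receptor SMAD genes and Smad4 had rank 667 at E10.5, and there was none at E9.5. With any transcript 5′ end, Smad4 also took the shared peak at Mex3c, with rank 176 at E9.5 and rank 215 at E10.5. With 1 list per stage the difference between the inhibitory SMAD genes and the other SMAD genes was not tested.

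Of the 11 genes for BMP and TGF-β receptors, 2 had an E9.5 peak within 100 kb and 8 an E10.5 peak. These shares of 18.2% and 72.7% stood beside 20.5% and 52.9% of all protein-coding genes, so that the E9.5 share was near the background. The highest scores of the group were those of Bmpr2 at E9.5 (score 439, rank 15) and of Acvr2b at E10.5 (score 189, rank 54), which both encode type II receptors. Like Smad4, Smad5 and Smad9, 7 receptor genes had a peak at E10.5 only, as had 38.3% of all genes. In Tgfbr1, Bmpr1a and Acvr2b of these 7, the 5′ end lay inside a peak. The best E10.5 peaks of the type I receptor genes Tgfbr1 and Bmpr1a had scores of 80.7 and 87.8 and ranks of 1123 and 844. The other 4 were Acvr1 (best score 53.7), Tgfbr2 (41.4), and Acvrl1 and Acvr1b, which share 1 best peak (91.2). Like Smad1, Smad2 and Smad3, the type I receptor genes Acvr1c and Bmpr1b had no peak at either stage, as had 41.2% of all genes.

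Of the 13 genes for regulators of SMAD activity or abundance, 9 had a peak at E9.5 and all 13 had one at E10.5. Over all protein-coding genes these shares were 20.5% and 52.9%. Skil, which encodes a SMAD corepressor, had the peak with rank 1 in both lists (scores 3100 and 2160). A peak at E10.5 only was found at Trim33 (best score 83.8, rank 994), a ubiquitin ligase for SMAD4, at the SMAD phosphatase gene Ppm1a (78.5, rank 1244), at the deubiquitinase gene Usp9x (62.1, rank 2747) and at the corepressor gene Ski (56.9). Of these 4 genes (38.3% of all genes had a peak at E10.5 only), Trim33, Ppm1a and Usp9x had the 5′ end inside an E10.5 peak, as had Smad4, Smad5 and Smad9. In the whole group of 13 regulator genes the same was seen for 11, beside 11.3% of all coding genes. Among 6 BMP target genes, 5 had a peak at the earlier stage (20.5% of all genes) and 6 at the later (52.9%). Id4, an inhibitor of bHLH factors, had the highest scores (1080 at rank 6 and 344 at rank 7). Msx1, a homeobox gene, was the target gene with a peak at E10.5 only. Its 5′ end lay inside a peak, and its best peak (72.4, rank 1616) was 45.8 kb from the 5′ end. With gene 5′ ends as reference, the receptor SMADs with SMAD4 were the group without an E9.5 peak among the 5 groups counted. With any transcript 5′ end, 2 of these 6 genes had an E9.5 peak and the receptor genes still 2 of 11, so that no group was without one.

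**Figure D5:**
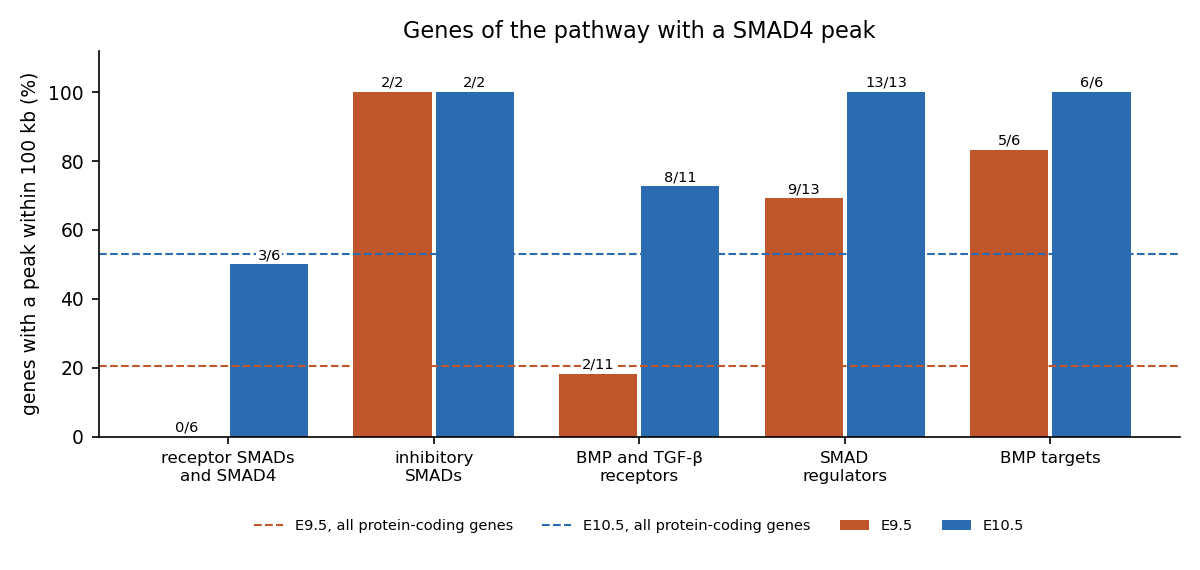
Share of the genes of each pathway group (%) with a SMAD4 peak within 100 kb at E9.5 and E10.5, with gene counts above the bars and the share of all protein-coding genes as dashed lines (20.5% and 52.9%). The receptor SMADs and SMAD4 have 0 of 6 and 3 of 6, and the inhibitory SMADs 2 of 2 at both stages.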

How the data were processed

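ChIP and input samples were grouped by stage from their titles. The authors aligned trimmed reads uniquely to mm9 with Bowtie 1.1.0, called peaks in each replicate against its input with MACS 1.4 at a permissive threshold, and merged both replicates with MSPC, which keeps the best p-value of a merged region. In the deposited lists each peak has its position and a score of unnamed unit. They hold no read depth or replicate error.

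From these lists, positions (1-based) were compared with GENCODE vM1 on NCBIM37 (mm9), using Python 3.11.15, NumPy 2.4.6, pandas 2.3.3 and Matplotlib 3.10.9. Distances ran from the peak centre to the annotated 5′ end of the gene. Peaks were shared when they overlapped by at least 1 bp, and tied scores were given the smaller rank. Sequences were searched in 300 bp around the centre. 0 peaks ran past a chromosome end. The interval functions were checked on made-up intervals. RefSeq promoter tables of a later build were not used. Alternatives covered the window, gene assignment, transcript 5′ ends, score thresholds, list length, definitions of overlap and the sequence window.

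All 6 genes and each of their peaks are named, with the nearest peak where there was none. Other pathway genes are named when they had the best score of their group or the same presence of peaks as 1 of the 6. Genes and lists were chosen with earlier results of these data known.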

Additional observations from a re-analysis of the deposited data

How the results depend on the processing

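No paired analysis was possible because both replicates of a stage had been combined before deposit, and for the same reason no replicate could be left out. Of 62 alternative values, 41 were the same as the value reported, 4 differed from it by at most 1.5 times and 17 moved by more. Where the reported value was 0, a narrower window or a stricter cut could only give 0 again. Many of the equal values are of this kind, so that their number does not measure stability. A window of 250 kb in place of 100 kb gave 3 of the 6 genes (Smad3, Smad4 and Smad5) and 6 peaks at E9.5, and 6 genes and 18 peaks at E10.5, with 1 peak of each list overlapping the other, as more peaks enter a wider window. Over all coding genes this window held a peak for 40.6% at E9.5 and 72.0% at E10.5. A window of 50 kb kept 4 E10.5 peaks. Distances to any transcript 5′ end gave 2 genes (Smad4 and Smad5), 2 peaks and 1 overlapping peak at E9.5, and 1 overlapping peak at E10.5. A score of 100 or more left 0 genes and 0 peaks at E10.5. Few peaks of the whole list pass this cut, as a score of 96.8 already had rank 591 of 6185. An E10.5 list cut to equal length, 2073 of 6185 peaks, left 2 of the 7 peaks. Requiring the SMAD gene to be the nearest coding gene left 4. The share of all genes with a peak was not counted under these 3 alternatives. The assignment to the nearest coding gene up to 1 Mb away was chosen after seeing the data, and added Smad2 to the 3 genes with an E10.5 peak. It used gene 5′ ends, and by transcript 5′ ends 2 of the 3 peaks of Smad2 were nearest to Zbtb7c. Searching whole peaks found CAGACC in 3 and GGCGCC in 5 of the 7, as longer sequence was searched. The unknown depth limits every statement that a peak is absent.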

Other observations

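Within 1 Mb of the 5′ end, counts of E9.5 and E10.5 peaks were 3 and 8 at Smad1, 8 and 12 at Smad5, 1 and 4 at Smad9, 6 and 14 at Smad2, 5 and 10 at Smad3, and 1 and 6 at Smad4. The medians over all protein-coding genes were 2 at E9.5 and 7 at E10.5. Smad2, without a peak within 100 kb, thus had the most E10.5 peaks of the 6 genes in the wider region. These counts include peaks near the inhibitory SMAD genes. Smad7, whose 5′ end is 874 kb from that of Smad2, had 3 E9.5 and 4 E10.5 peaks within 100 kb, which count among those of Smad2. Likewise the 3 E9.5 and 2 E10.5 peaks within 100 kb of Smad6 count among those of Smad3. Of the 3 genes with a peak over the 5′ end, Smad4 and Smad9 lay below the median of all genes at E10.5 and Smad5 above it. The median gene lay 350 kb from an E9.5 peak and 87.8 kb from the nearest peak of the later stage. Peaks that cover a coding 5′ end made up 20.5% of the E9.5 list and 36.3% of the E10.5 list, and 53.1% and 10.2% of them overlapped a peak of the other stage. The E10.5 peaks over the 5′ ends of Smad4, Smad5 and Smad9 belong to the part of that class without an E9.5 overlap. This follows from the lack of E9.5 peaks within 100 kb of these genes.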
